A study of Mus musculus with 8 samples.

Results

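Transcripts of the transforming growth factor β (TGF-β) pathway were measured by RNA seq in Th17 cells, for 10 genes taken by symbol from a deposited table of 22829 genes. They were the ligand genes Tgfb1 and Tgfb3, the receptor genes Tgfbr1 and Tgfbr2, the receptor-regulated SMAD genes Smad2 and Smad3, the common-partner gene Smad4, the inhibitory gene Smad7, and the corepressor genes Ski and Skil. Each symbol was found once. All 10 genes had a mean of at least 10 normalized counts over the samples, the level set for testing, which 16982 genes of the table reached.

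Th17 cells from ROR-γt-/- mice were given back 1 of 2 forms of ROR-γt, the wild type in 4 samples (WT) and a mutant that cannot be SUMOylated, K187R, in the other 4. ROR-γt is the transcription factor that defines Th17 cells, and in the K187R form the lysine that takes up SUMO is an arginine. In both groups CD4+ T cells were purified with magnetic beads from spleens of mice that lack ROR-γt, transduced with a lentivirus carrying 1 of the 2 forms, and cultured under Th17-polarizing conditions. The sources used here do not state the Th17 medium, a selection of transduced cells, the age or sex of the mice, or whether equally numbered samples came from 1 animal or culture. The p-values therefore measure the spread between these samples, which may be technical in part. Recombinant TGF-β and IL-6 were among the reagents of the study.

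TGF-β is made as a latent protein and acts once it is released. It binds the type II receptor, encoded by Tgfbr2, which recruits and phosphorylates the type I receptor, encoded by Tgfbr1. The type I receptor phosphorylates SMAD2 and SMAD3, which join SMAD4 and enter the nucleus. SMAD7 blocks the receptor, and SKI and SKIL (also called SnoN) hold SMAD target genes in a repressed state until they are degraded. Together with IL-6, TGF-β drives naive CD4+ T cells to the Th17 fate, and without IL-6 it favours regulatory T cells.

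The samples held 52456804 to 74676721 reads assigned to genes, and a count of 3 reads, taken as the floor of detection, corresponded to 2.54 to 3.56 normalized counts. All 11 T cell markers on a list, Cd3e and Cd4 among them, had a mean of at least 10 in the samples, as had all 10 Th17 markers. Markers of other cells were also present. The summed normalized count of 7 myeloid markers, all detected, ranged from 21416 to 63126 in WT and from 36360 to 66293 in K187R, and that of 5 platelet markers, all detected, from 499 to 2472 and from 831 to 2489. The NK cell marker Ncr1 ranged from 0 to 9.48 normalized counts over the samples and the stromal marker Pdgfra from 0 to 4.45. The samples fell into 3 sets by clustering on genes outside the lists of this report. WT replicates 1 and 3 and K187R replicate 1 formed set 1. WT replicate 2, K187R replicate 2 and K187R replicate 3 formed set 2, and both samples numbered 4 formed set 3. Xist, which is expressed from the inactive X chromosome, was at 13564 to 17373 normalized counts in set 2 and at 3.56 to 23.7 elsewhere. By this gene, set 2 had the level of female cells and the other samples that of male cells. Set 2 and sex thus cannot be told apart here, and the part of sex in the differences was not tested. Myeloid markers summed to between 21416 and 36360 in set 1, against 44988 or more in the others. The 5 B cell markers (sums of 301 to 1596 over all samples), the 2 CD8 T cell markers (387 to 1141), 2 of 3 NK cell markers (157 to 483 for the list) and 3 of 5 stromal markers (36.5 to 330) reached a mean of 10. In bulk samples, fewer cells of a type and less RNA per cell cannot be told apart.

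**Figure D1:**
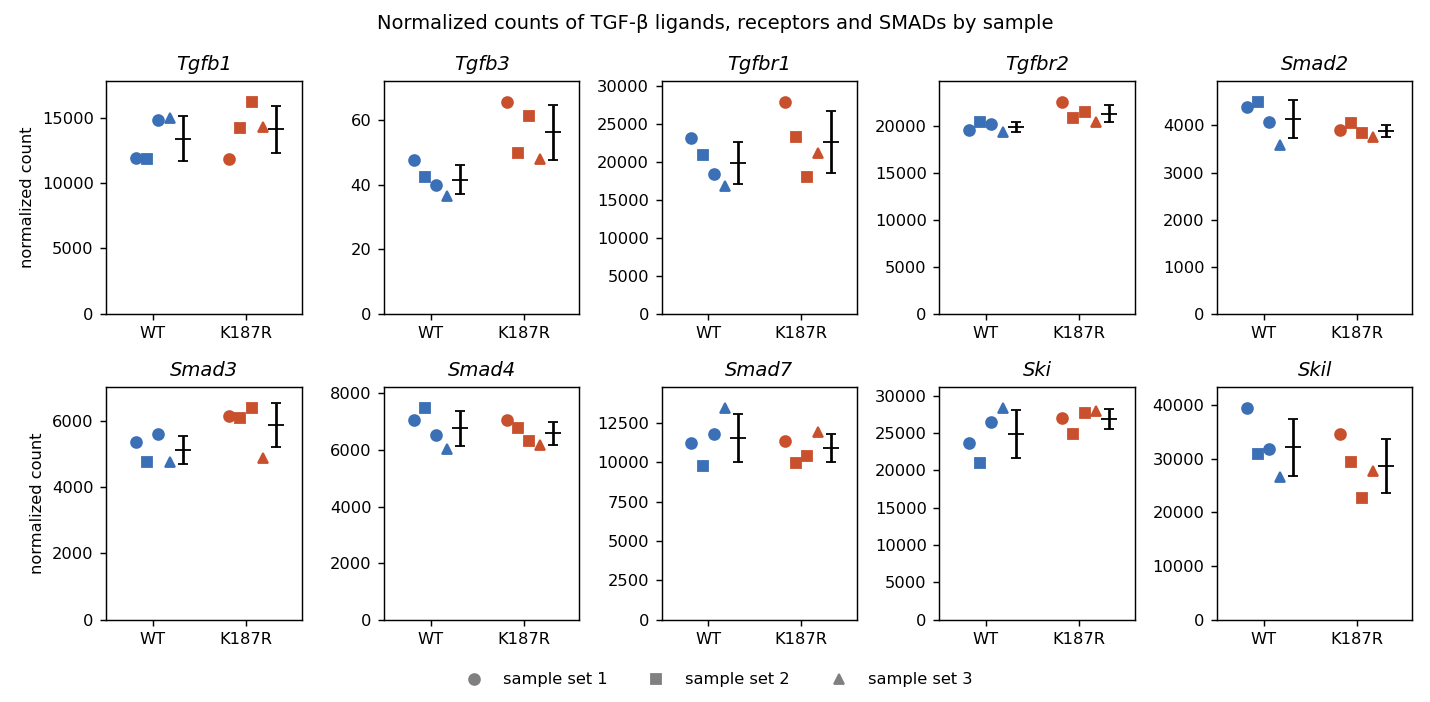
Normalized counts (vertical axes, from 0) of the 10 genes in each sample, with WT in blue and K187R in orange. The shape of a point gives the sample set, and the bars show the mean ± SD of 4 samples. Only for Tgfb3 do all K187R samples, from 48.0 upwards, lie above all WT samples, up to 47.5.

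Whether the form of ROR-γt went with a different level of these transcripts was tested with limma on log2(normalized count + 1), a scale that understates the change of low genes, with differences taken as K187R minus WT. None of the 10 genes passed an adjusted p of 0.05, with adjusted p from 0.921 to 0.961 in limma, and limma called 0% of all genes tested. Without adjustment, limma put 0 of the 10 past 0.05, against 4.39% of all genes. The edgeR quasi-likelihood test on the recovered reads also called 0 of the 10 after adjustment, with 1 at an unadjusted p under 0.05 (Tgfb3), against 4.29% of all genes. DESeq2 called 0 of the 9 that it gave an adjusted p (Tgfb3 had none), against 0.276% of the 12695 genes that it gave one. It had 0 of the 10 at an unadjusted p under 0.05, against 4.97% of 16973 genes. On the log2 scale 6 of the genes were above 0 and 4 below, with a median of 0.088, against a median of -0.0062 over all genes tested. The median spread within groups was 0.153 for the 10 genes and 0.22 for all genes (SD of log2 values), and 2 of the 10, Tgfbr1 and Skil, lay above the latter.

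**Figure D2:**
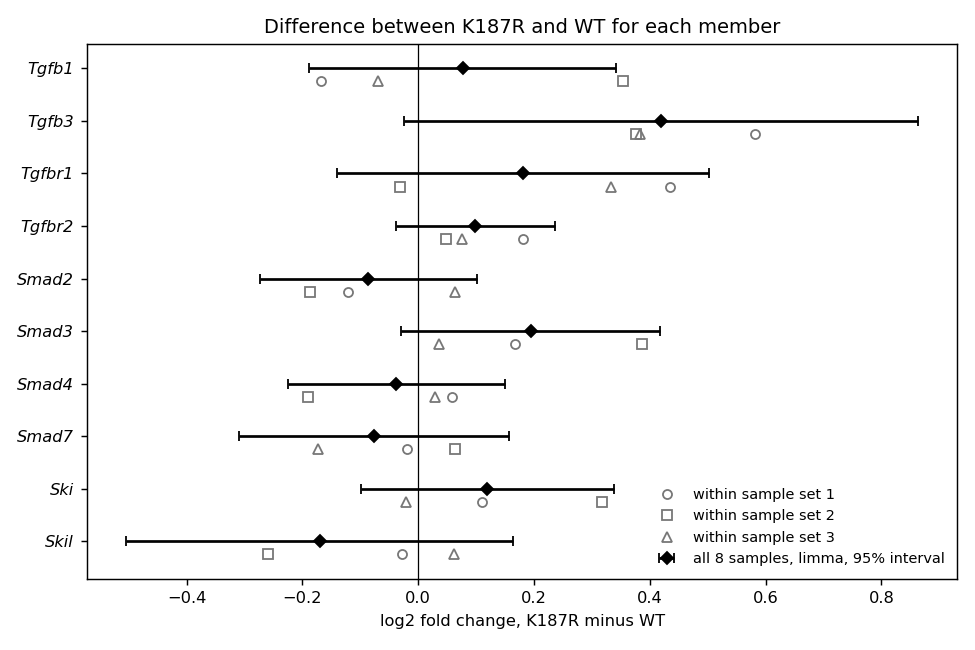
Log2 fold change of each gene, K187R minus WT, with its 95% interval from limma (diamonds), and the difference of the means within each sample set (open symbols). Every interval includes 0, and Tgfb3, Tgfbr2 and Smad3 have all 3 open symbols to the right of 0.

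Tgfb1 was abundant and Tgfb3 scarce, and neither ligand gene passed the test. Tgfb1 (ENSMUSG00000002603, chromosome 7 of GRCm38, 25687002 to 25705077) encodes the main TGF-β of the immune system. Its normalized counts were 11928, 11891, 14833 and 14969 in WT replicates 1 to 4 and 11834, 14236, 16208 and 14270 in K187R replicates 1 to 4. The lowest sample of all was a K187R sample and so was the highest, and all WT samples lay between them. The means were 13405 ± 1728 (SD, n = 4) and 14137 ± 1791 (SD, n = 4), or 0.08 on the log2 scale (SE 0.118, limma adjusted p = 0.938), with a 95% interval from 0.878-fold to 1.27-fold. Within the sets of samples the difference was -0.17, 0.35 and -0.069, and without set 2 the sign turned, to -0.090. With 1 sample left out it ran from 0.0081 (without K187R replicate 3) to 0.16 (without K187R replicate 1). Myeloid cells and platelets also make Tgfb1, and the part of their markers in its level was not tested.

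Tgfb3 (ENSMUSG00000021253, chromosome 12, 86056745 to 86079041, minus strand) encodes a ligand that Th17 cells are known to make in response to IL-23. It had few reads, 40 to 58 per sample. Its normalized counts were 47.5, 42.3, 39.7 and 36.6 in WT and 65.5, 49.9, 61.1 and 48.0 in K187R. The lowest K187R sample stood just above the highest WT sample, so the groups did not overlap, as was the case for 2.46% of all genes tested. The counting error of single samples was wider than that gap. WT replicate 1 had an exact 95% Poisson interval of 34.0 to 64.7 and K187R replicate 4 one of 36.1 to 62.6, which cover counting error only. The means were 41.5 ± 4.62 (SD, n = 4) and 56.1 ± 8.52 (SD, n = 4), or 0.42 on the log2 scale (SE 0.197, limma adjusted p = 0.921). The exact two-sided permutation p was 0.0286, the smallest that 4 samples against 4 can give. Groups that do not overlap always have this p, so it adds nothing to the lack of overlap, and it is not adjusted. The 95% interval of the fold reached from 0.984 to 1.82, and the difference was 0.58, 0.38 and 0.38 on the log2 scale in sets 1, 2 and 3. Annotated genes on the opposite strand (Gm37804 and Gm48008) overlap 12.4% of its exonic bases. Neither symbol is listed in the deposited table. A strand setting of the counting is not given in the sources used here. Whether reads from Gm37804 and Gm48008 were counted for Tgfb3 therefore cannot be told.

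The receptor genes had K187R means above the WT means, without passing the test. Per kilobase of exon, Tgfbr1 was above Tgfbr2 in every sample, by 1.05-fold (K187R replicate 3) to 1.55-fold (K187R replicate 1). Tgfbr1 (ENSMUSG00000007613, chromosome 4, 47353222 to 47414931) encodes the type I receptor kinase. It was measured at 23157, 20910, 18329 and 16828 normalized counts in WT replicates 1 to 4 and at 27836, 23252, 18007 and 21187 in K187R. K187R replicate 1 was the highest sample and WT replicate 4 the lowest, but K187R replicate 3 lay below 3 of the WT samples. K187R minus WT came to 0.18 on the log2 scale (SE 0.143, limma adjusted p = 0.921, exact permutation p = 0.343), with a fold interval from 0.907 to 1.42. Within sets 1, 2 and 3 it was 0.43, -0.031 and 0.33. It was 0.075 without K187R replicate 1 and 0.28 without K187R replicate 3.

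Tgfbr2 (ENSMUSG00000032440, chromosome 9, 116084293 to 116175360, minus strand) encodes the type II receptor, the chain that binds the ligand. It varied least of the 10 genes, with an SD of 0.051 within groups on the log2 scale. Its normalized counts were 19542, 20439, 20151 and 19364 in WT and 22508, 20806, 21451 and 20395 in K187R. K187R replicate 4 was just below WT replicate 2, and the other K187R samples were above all WT samples. The means were 19874 ± 505 (SD, n = 4) and 21290 ± 921 (SD, n = 4), or 0.10 on the log2 scale (SE 0.0608, limma adjusted p = 0.921, exact permutation p = 0.0571). The interval reached from 0.974-fold to 1.18-fold, so a larger difference in either direction lay outside it. The difference was 0.18, 0.048 and 0.075 in the 3 sets, K187R above WT in each.

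Promoter windows of RefSeq on GRCm38.p6, from 250 bases before to 50 after a transcript start, were at hand for 5 of the 10 genes (Tgfb1, Tgfbr1, Tgfbr2, Smad3 and Ski, 6 windows in all). The core AGGTCA, which ROR factors bind, was searched on both strands and is in 16.3% of all 32851 windows. It was in 0 of the 6, which says only that these letters are not there. The SMAD box GTCTG, or CAGAC on the other strand, was in 49.6% of all windows and in 2 of the 6. The palindrome GTCTAGAC that SMADs bind (0.213% of all windows) and the AP-1 site TGACTCA (5.20%) were each in 0 of the 6. The GTCTG sites are shown because both lie at the receptor genes, with 10 bases on each side and with CAGAC in capitals, read 5′ to 3′ along the gene.
Tgfbr1, chr4:47386003-47386027, plus strand, in the window of a start inside the gene: tcgaactcagCAGACagccccacgg
Tgfbr2, chr9:116175509-116175533, minus strand: acttggagccCAGACttggcggggt
A match of 5 bases is a description of the letters and not a site of binding.

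Among the SMAD genes that carry the signal, Smad3 had the K187R mean above the WT mean and Smad2 and Smad4 below, and none passed the test. Smad3 (ENSMUSG00000032402, chromosome 9, 63646767 to 63757994, minus strand) encodes a SMAD that binds DNA directly once the receptor has phosphorylated it. Its normalized counts were 5345, 4754, 5588 and 4767 in WT and 6136, 6067, 6373 and 4885 in K187R. The K187R samples numbered 1 to 3 were above every WT sample, and K187R replicate 4 was below 2 of them. The means were 5113 ± 420 (SD, n = 4) and 5865 ± 666 (SD, n = 4), or 0.19 on the log2 scale (SE 0.0998, limma adjusted p = 0.921, exact permutation p = 0.114). The fold interval was 0.979 to 1.34, and the difference was 0.17, 0.39 and 0.036 in sets 1, 2 and 3. With 1 sample left out the difference ran from 0.15 (without K187R replicate 3) to 0.28 (without K187R replicate 4). The latter had a limma unadjusted p of 0.0095 and an adjusted p of 0.776.

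Smad2 (ENSMUSG00000024563, chromosome 18) encodes the partner that the receptor phosphorylates beside SMAD3. It was at 4395, 4495, 4082 and 3583 normalized counts in WT and at 3894, 4054, 3847 and 3745 in K187R. WT replicate 4 was the lowest sample and the other WT samples were above all of K187R. K187R minus WT came to -0.086 on the log2 scale (SE 0.0833, limma adjusted p = 0.923), with a fold interval from 0.827 to 1.07. Within sets it was -0.12, -0.19 and 0.064. It was -0.045 without WT replicate 2 and -0.15 without WT replicate 4.

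Smad4 (ENSMUSG00000024515, chromosome 18) encodes the SMAD that the phosphorylated SMADs share. Its normalized counts were 7039, 7467, 6517 and 6048 in WT and 7053, 6773, 6328 and 6175 in K187R, so that the K187R samples all lay within the WT range. K187R minus WT came to -0.038 on the log2 scale (SE 0.0831, limma adjusted p = 0.961), with an interval of 0.856-fold to 1.11-fold. The sign turned without WT replicate 2, to 0.011, and without set 2, to 0.017.

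The genes that restrain the pathway differed in direction, Ski above 0 and Smad7 and Skil below, and none passed the test. Smad7 (ENSMUSG00000025880, chromosome 18), which TGF-β itself induces and whose product blocks the type I receptor, was at 11254, 9757, 11794 and 13438 normalized counts in WT. In K187R it was at 11362, 9985, 10421 and 11918, all within the WT range. K187R minus WT came to -0.076 on the log2 scale (SE 0.104, limma adjusted p = 0.932), with an interval of 0.807-fold to 1.11-fold. Without WT replicate 4, the highest sample, it was -0.00067, and without WT replicate 2, the lowest, -0.15.

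Ski (ENSMUSG00000029050, chromosome 4, 155154075 to 155222592, minus strand) encodes a corepressor that binds SMAD complexes. It was at 23600, 21041, 26444 and 28298 normalized counts in WT and at 26959, 24910, 27611 and 27884 in K187R. The K187R samples lay close together inside the WT range, at 26841 ± 1344 (SD, n = 4) against 24846 ± 3188 (SD, n = 4) in WT. K187R minus WT came to 0.12 on the log2 scale (SE 0.0972, limma adjusted p = 0.921). It was 0.11, 0.32 and -0.021 in the 3 sets, 0.042 without WT replicate 2 and 0.18 without WT replicate 4.

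Skil (ENSMUSG00000027660, chromosome 3, 31095058 to 31122577) encodes SnoN, a relative of SKI whose gene is also induced by TGF-β. Its normalized counts were 39407, 30907, 31777 and 26572 in WT and 34713, 29439, 22642 and 27733 in K187R. It varied most of the 10 genes, with an SD of 0.245 within groups on the log2 scale, from K187R replicate 3 at the bottom to WT replicate 1 at the top, and the groups overlapped. K187R minus WT came to -0.17 on the log2 scale (SE 0.149, limma adjusted p = 0.922, exact permutation p = 0.343), with a fold interval from 0.705 to 1.12. Within sets it was -0.028, -0.26 and 0.062. It was -0.068 without WT replicate 1, -0.063 without K187R replicate 3 and -0.27 without K187R replicate 1.

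Of the 10 genes, 3 had a K187R mean above the WT mean in each of the sets (Tgfb3, Tgfbr2 and Smad3), where 13.9% of all genes tested did, and 0 had it below in each, where 9.42% did. Some of these means are single samples. K187R replicate 1 was the only K187R sample of set 1 and WT replicate 2 the only WT sample of set 2. Set 3 held only the samples numbered 4. With the set as a factor in limma the adjusted p was 0.550 for Tgfb3, 0.754 for Tgfbr2 and 0.524 for Smad3. The extremes among the 8 samples were shared unevenly. WT replicate 4 was the lowest sample for 5 of the genes (Tgfb3, Tgfbr1, Tgfbr2, Smad2 and Smad4) and the highest for Smad7 and Ski. K187R replicate 4, of the same set, was likewise the lowest K187R sample for Tgfb3, Tgfbr2, Smad2 and Smad4, and also for Smad3, and the highest for Smad7 and Ski. WT replicate 2 was the lowest for Smad3, Smad7 and Ski and the highest for Smad2 and Smad4. Within WT, replicates 2 and 4 were thus at opposite ends for Smad2, Smad4, Smad7 and Ski. They had the most myeloid marker counts of their group, 51059 in replicate 2 and 63126 in replicate 4. The part of the marker counts in these levels was not tested.

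**Figure D3:**
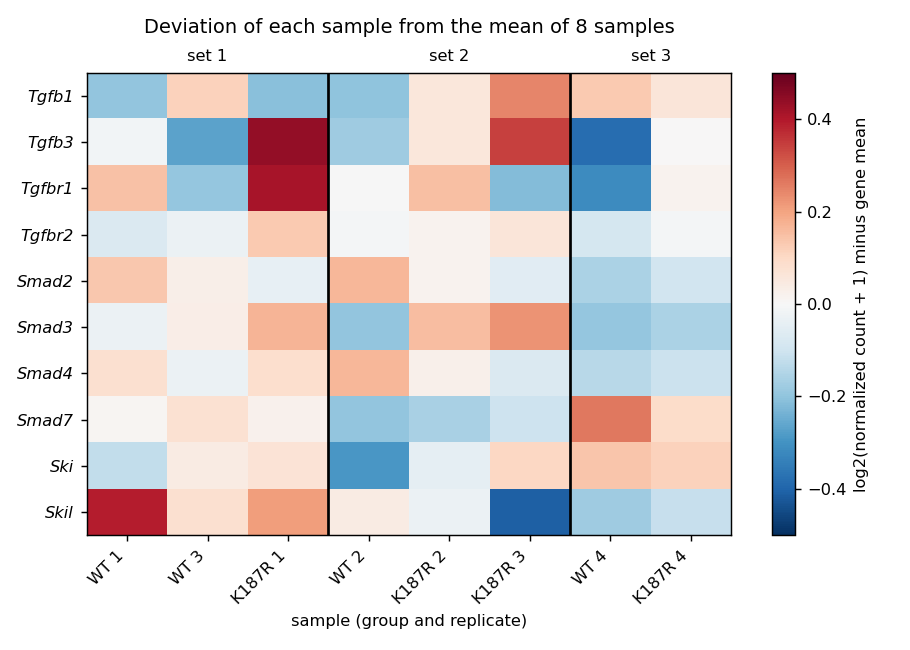
Deviation of each sample from the mean of the 8 samples, as log2(normalized count + 1), for the 10 genes (rows), with samples ordered by set and group (columns). Red is above and blue below the mean. WT replicate 4 is below the mean for Tgfb3, Tgfbr1, Tgfbr2, Smad2 and Smad4 and above it for Smad7 and Ski.

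Levels were compared between genes as normalized counts per kilobase of exon, over the union of the annotated exons. Ski had the highest level, 4646 ± 450 (SD over the 8 samples), above Tgfbr1 in 8 of 8 samples. Tgfbr1 (3243 ± 548), Skil (3136 ± 530), Tgfb1 (2731 ± 332), Tgfbr2 (2514 ± 125) and Smad7 (2486 ± 265) followed, and neighbours in this stretch were not in the same order in every sample. Smad4 (1798 ± 133), Smad3 (991 ± 118) and Smad2 (457 ± 35.6) came next, each with a range apart from that of its neighbours. Tgfb3 stood far below all of them, at 14.4 ± 2.97 per kilobase. The order of the higher genes depended on the length used. The exon union of Tgfb1 has 5042 bases and its longest transcript 2573, and per kilobase of the latter Tgfb1 was the highest of the 10, at 5352. By that length Ski (4680), Skil (4526), Tgfbr1 (3681), Smad7 (2628) and Tgfbr2 (2543) followed.

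**Figure D4:**
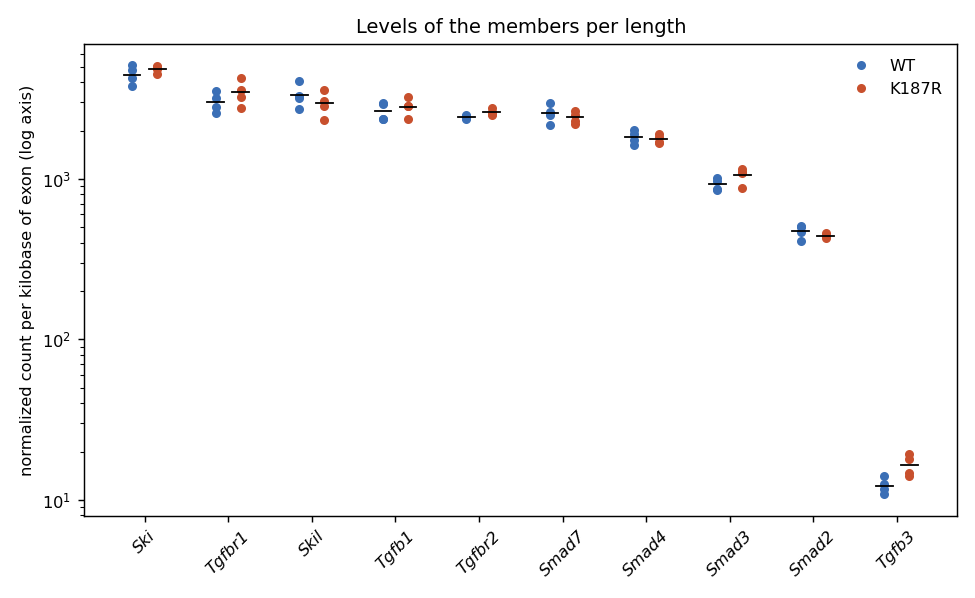
Normalized count per kilobase of exon (log axis) of each gene in the 8 samples, WT in blue and K187R in orange, with a line at each group's mean. Ski is at the top with a mean of 4646, and Tgfb3, with a mean of 14.4, lies far below the rest.

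The other genes of the pathway were taken from 7 lists by role, 83 symbols in all, of which 80 were tested. In limma 0 of the 80 passed an adjusted p of 0.05, 5 had an unadjusted p under 0.05 (2 higher in K187R, where 2.75% of all genes were, and 3 lower, where 1.64% were), and 33 were above 0 and 47 below, with a median log2 fold change of -0.030. The groups did not overlap for 3 of them (3.75%), Acvr1b, Tgif1 and Fasl, against 2.46% of all genes.

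Of 12 genes of TGF-β latency and activation, 9 were above 0 and 3 below, with a median of 0.25, the farthest from 0 of the 7 lists. Furin, the protease that cuts the TGF-β precursor, was at 16602, 13145, 20217 and 19990 normalized counts in WT and at 20647, 18510, 23629 and 21469 in K187R. The groups overlapped, and K187R minus WT came to 0.28 on the log2 scale (SE 0.141, limma adjusted p = 0.921). Nrros, which tethers latent TGF-β on myeloid cells, had a log2 fold change of 0.32. It was at 958 to 1602 in WT and at 1323 to 2049 in K187R. Lower in K187R on average were Itgav, the αv integrin chain that releases active TGF-β, at -0.21, and Lrrc32 (GARP), which displays latent TGF-β on regulatory T cells, at -0.20. The largest differences on the list, named after their values were seen, were those of Ltbp1, which encodes a protein that binds latent TGF-β in the matrix, at 0.65, and Thbs1, which encodes thrombospondin, an activator of TGF-β that platelets store, at 0.61. Ltbp1 was at 29.6 to 88.0 normalized counts in WT and at 37.3 to 121 in K187R, and Thbs1 at 2295 to 8205 and at 2616 to 9319, so that both overlapped widely. The markers of platelets (5 of 5, 0.64 to 1.06 on the log2 scale) and of myeloid cells (7 of 7, 0.016 to 1.09) were also above 0, and their part in the list's median was not tested.

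Among 10 tested genes of other receptors and co-receptors, 3 were above 0 and 7 below, with a median of -0.089. Acvr1b, a type I receptor for activins that also phosphorylates SMAD2 and SMAD3, was at 3584, 3590, 3646 and 3857 normalized counts in WT and at 4140, 3904, 4171 and 3992 in K187R. All K187R samples were above all WT samples, by 0.14 on the log2 scale (SE 0.0621, limma adjusted p = 0.921). Tgfbr3, the co-receptor betaglycan, had 0.13. Acvr1 and Acvr2b, receptors for bone morphogenetic proteins and activins, had -0.33 and -0.25.

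Of 12 tested genes of other SMADs and SMAD cofactors, 3 were above 0 and 9 below, with a median of -0.074. Tgif1, a homeodomain corepressor of SMAD2 and also a gene that TGF-β induces, was at 5849, 6138, 6226 and 6398 in WT and at 4695, 5290, 5404 and 5818 in K187R. Here every K187R sample was below every WT sample, with a difference of -0.22 on the log2 scale (SE 0.0776, limma adjusted p = 0.921). Zeb1, a zinc finger repressor that binds SMADs, had -0.41 (standard error 0.141), with WT replicate 4 inside the K187R range and the other WT samples above it. Its relative Zeb2 had 0.25 and Smad5, a SMAD of the bone morphogenetic protein branch, 0.082.

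Of 14 genes that turn over or switch off receptors and SMADs, 5 were above 0 and 9 below. Ldlrad4, an inhibitor that TGF-β induces, had a log2 fold change of 0.16 and Nedd4l, a ubiquitin ligase for SMAD2 and SMAD3, 0.11. Ppm1a, a phosphatase for these SMADs, had -0.11, and Fkbp1a, which keeps the type I receptor inactive, -0.19. Of 9 genes of the non-SMAD branch, 3 were above 0 and 6 below. The kinase genes Mapk14 and Map2k6 had 0.11 and 0.087, the latter -0.085 without WT replicate 4 and -0.00083 under quantile normalization. Map2k3 and Traf6, an adaptor with ligase activity, had -0.26 and -0.25.

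The readouts of the pathway were given by 16 genes that TGF-β is known to induce, 5 above 0 and 11 below with a median of -0.067, and by 10 that it is known to repress in T cells, 6 above 0 and 4 below with a median of 0.028. Itgae, which encodes the αE integrin chain CD103, was at 3395, 3588, 3426 and 5519 normalized counts in WT and at 6931, 4829, 5120 and 5927 in K187R. Only WT replicate 4 lay among the K187R samples, and K187R minus WT came to 0.54 on the log2 scale (SE 0.173, limma adjusted p = 0.921). Tgfbi, a matrix protein named for its induction by TGF-β and made in quantity by myeloid cells, had 0.31, and Cdkn1a, the cell cycle inhibitor p21, -0.16. Of the repressed genes, Fasl, which encodes a ligand that triggers cell death, was at 520, 469, 461 and 526 in WT and at 378, 347, 330 and 420 in K187R. Every K187R sample was below every WT sample, with a difference of -0.43 on the log2 scale (SE 0.116, limma adjusted p = 0.921). Prf1 and Gata3 had 0.21 and 0.24 and Il2 had -0.28. DESeq2 with the sample set as a factor called 0.946% of the 15006 genes that it gave an adjusted p. Itgae and Zeb1 passed in it (adjusted p = 0.00653 and 0.0156). Neither passed in DESeq2 without the set or in limma with it.

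**Figure D5:**
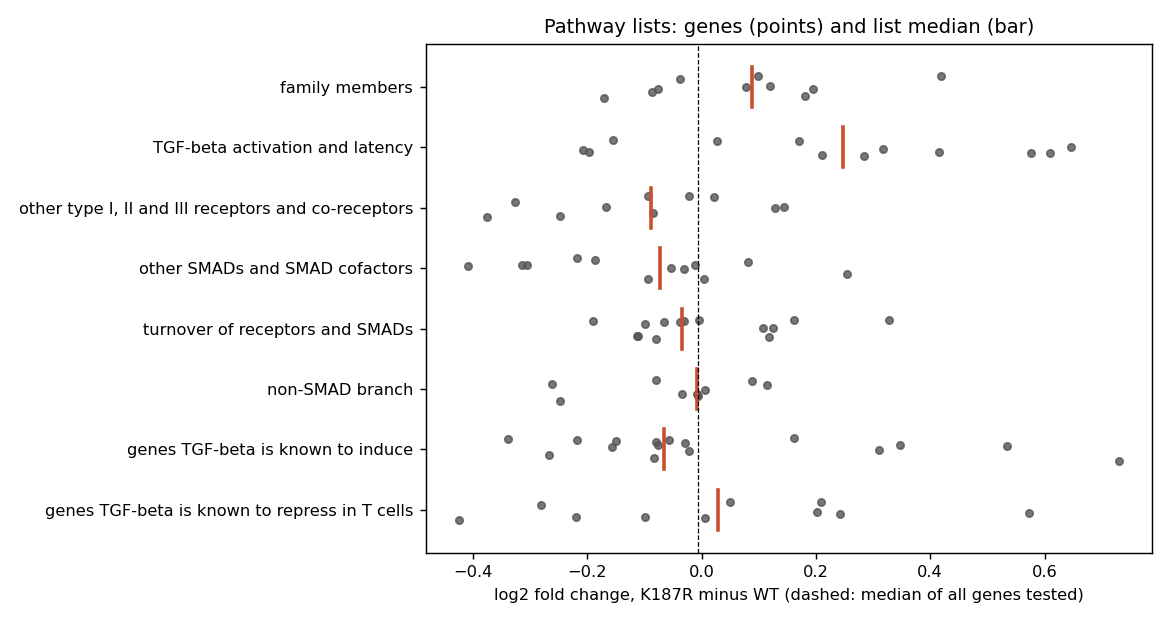
Log2 fold change, K187R minus WT, of the 10 genes and of each tested gene of the 7 pathway lists (points), with the median of each list as a bar and the median of all genes tested as a dashed line at -0.0062. The list of latency and activation has the median farthest from 0, at 0.25, and every list has genes on both sides of 0.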

How the data were processed

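Cutadapt trimming, HISAT2 alignment to GRCm38, featureCounts on GENCODE M15 and DESeq2 normalization were the steps of the authors. Their versions, strand setting and the treatment of multi-mapping reads are not given in the sources used here. The labels name another library kit than the paper's methods, which name a poly-A kit. The authors deposited a signal for each gene, namely reads divided by 1 size factor per sample (normalized counts), from which whole reads were recovered for 100% of values (tolerance 0.01 of a read; size factors equal to those of DESeq2 within 1.99e-10). Every sample column was used.

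Groups and replicate numbers were taken from the labels. Since normalized values call for a log scale, groups were compared with limma (lmFit, eBayes with trend) on log2(normalized count + 1) over 16982 genes with a mean of at least 10, with Benjamini-Hochberg adjustment over all of them and a threshold of 0.05. Each member also got an exact permutation test, two-sided, over the 8 samples. Sample sets came from Ward clustering over 16847 genes outside the lists. The genes named are the 10 members, and from each pathway list those past the threshold and the 2 with the smallest p in each direction, with list genes that an alternative called. The members and lists were chosen with earlier results of these data known. Alternatives tried were a pseudocount of 0.5 or 5, testing every gene, requiring a mean of 50, total-count scaling, quantile normalization, the replicate block, the sample set, each sample left out, edgeR (also with the block) and DESeq2. Settings without set 2, without the samples numbered 4, and DESeq2 with the set or the block were chosen after seeing the data. Lengths and coordinates are from GENCODE M21 on GRCm38, in which 22784 of the 22829 identifiers were found. Fits of limma, edgeR and DESeq2 without covariates were run on simulated counts with known changes. The simulated means held no difference between sample sets, and their spread was estimated with the set as a factor. The simulation thus checked the fits and does not measure false calls in these data. A limit on false calls was set for limma and edgeR only. The settings with the set or the block were not tested in this way. Versions were Python 3.11.15 (pandas 2.3.3, numpy 2.4.6, scipy 1.17.1, matplotlib 3.10.9) and R 4.3.3 (DESeq2 1.42.0, limma 3.58.1, edgeR 4.0.16).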

Additional observations from a re-analysis of the deposited data

How the results depend on the processing

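Under 23 alternatives (22 for Tgfb3, which is below a mean of 50) none of the 10 members passed an adjusted p of 0.05, and 226 of 229 values kept their direction. Tgfb1 turned to -0.090 without set 2, and Smad4 to 0.017 without set 2 and to 0.011 without WT replicate 2 (from -0.090 to 0.011 with 1 sample left out). Map2k6 turned to -0.00083 under quantile normalization, -0.0021 without set 2 and -0.041 without the samples numbered 4, and ranged from -0.085 (without WT replicate 4) to 0.20 with 1 sample left out. The number of members at an unadjusted p under 0.05 was 0 in limma and 1 under total-count scaling, quantile normalization, edgeR, DESeq2 with the sample set and without the samples numbered 4, 2 with the sample set in limma and with the replicate block in limma or DESeq2, and 3 with the replicate block in edgeR. It was 0 to 1 with 1 sample left out, 1 without WT replicate 4 (Smad2) and 1 without K187R replicate 4 (Smad3). Smad3 had such a p in 9 of its 23 alternatives, Tgfb3 in 3 of 22, Tgfbr1 in 3 of 23 and Smad2 in 1 of 23. Of all genes, 4.29% to 12.8% had such a p under the settings with a member. The genes called over the whole table were 0 in limma and edgeR, 1 with the sample set, 35 in DESeq2, 142 in DESeq2 with the sample set, 189 in DESeq2 with the replicate block, 4 without the samples numbered 4, and 0 to 4 with 1 sample left out, the 4 without WT replicate 4. Of the pathway lists, 2 were called in DESeq2 with the sample set and 4 with the replicate block, and 0 otherwise. The cause was not tested. Per length of the longest transcript, 5 of the 10 members kept their rank.

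The deviations of same-numbered samples from their group means correlated at 0.59, 0.66 and 0.63 for numbers 1, 2 and 4, each sample best with its own number, but at -0.092 for number 3. WT replicate 3 correlated best with K187R replicate 1 (0.43) and K187R replicate 3 with WT replicate 2 (0.45). The labels state no shared source, so the numbers were not taken as pairs. Xist was at 10.1 normalized counts in WT replicate 3 and at 13564 in K187R replicate 3. The samples numbered 3 thus did not come from 1 animal. K187R was above the same-numbered WT sample in all 4 comparisons for Tgfb3, Tgfbr2 and Smad3, as for 11% of all genes. The replicate block treats same-numbered samples as pairs, also those numbered 3, which fell in different sample sets. With this block DESeq2 called 1.49% of the 12702 genes that it gave an adjusted p. The list genes called were Itgae (adjusted p = 0.0138), Zeb1 (0.00703), Furin (0.0399) and Fasl (0.0477). With the block limma called 0 genes, with 2046 at an unadjusted p under 0.05 against 746 without it, Smad3 (adjusted p = 0.408) and Tgfbr1 (0.409) among them. Tgfb3, at 40 to 58 reads per sample, is the member whose difference is limited by depth.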

Other observations

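The ratio of Smad3 to Smad2 per kilobase, formed after the values were seen and so not tested, does not depend on the scaling of the samples. It was 1.93, 1.68, 2.17 and 2.11 in WT replicates 1 to 4 and 2.50, 2.37, 2.62 and 2.07 in K187R replicates 1 to 4, with means of 1.97 ± 0.221 (SD, n = 4) and 2.39 ± 0.239 (SD, n = 4). K187R replicate 4 was the only K187R sample within the WT range.

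Foxp3, the factor of regulatory T cells and on the list of induced genes, followed the sample sets rather than the groups, and was named after its values were seen. It was at 6121 normalized counts in WT replicate 2 and at 6666 and 7574 in K187R replicates 2 and 3, the samples of set 2. The other WT samples were at 14863, 17297 and 12367, and the other K187R samples at 13524 and 11144. Among the members, Smad7 was also lowest in set 2, at 9757 to 10421 against 11254 or more in the other samples. Set 2 is also the set with high Xist, and the part of sex in these levels was not tested. The set 3 samples were the 2 lowest for Smad2 and Smad4 and the 2 highest for Ski.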
